A study of Arabidopsis thaliana with 4 samples.

Results

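In Arabidopsis thaliana seedlings, 4 genes were followed that are known as targets of epigenetic silencing or were grouped with such genes: SDC (AT2G17690), FWA (AT4G25530), QQS (AT3G30720) and AT3G01345. These 4 of the 34133 loci measured were chosen by their FPKM, an expression level scaled to transcript length and library size, as low in the wild type and higher in 3 mutants. Their differences from the wild type are therefore a description, with no test. The data matched that choice for SDC and AT3G01345. FWA was above the wild type in every mutant but rested on 4 to 10 reads a library. QQS, on at most 14 reads a library, was above the wild type in prp31 and zop1 only and was listed at 0 in sta1.

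The study sequenced polyadenylated RNA from whole seedlings of the C24 accession, grown for 10 days on MS agar at 23 degrees with 16 h of light and 8 h of dark. The groups were wild-type C24 and the mutants prp31, zop1 and sta1 in the same accession, each named after the gene it carries a mutation in, with 1 library a genotype. The alleles, and whether any line carried a reporter transgene, were not given in the sources used here. PRP31 and STA1 are pre-mRNA splicing factors, and ZOP1 is a nucleic acid-binding protein linked to splicing and silencing. With 1 library a genotype there was no replicate check: intervals below cover counting error only, and values describe these libraries rather than the genotypes.

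Plants silence transposons and some genes by methylating cytosines, guided in part by small RNAs. Tandem repeats near a gene's start can attract that methylation, and the gene is then expressed when methylation is lost. SDC encodes an F-box protein and is silenced through methylation of a tandem repeat upstream of it. FWA encodes a homeodomain transcription factor that is silent in vegetative tissue, is expressed from the maternal copy in endosperm, and delays flowering when expressed ectopically. QQS is an orphan gene, found in no other species, that acts in starch metabolism and whose expression varies with its DNA methylation. AT3G01345 has no gene symbol in the annotation.

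The sequences at the start of 3 of the genes are shown because methylation of such stretches is what the silencing of SDC and FWA is known for. They come from the RefSeq annotation of the Columbia genome (TAIR10.1), on the plus strand, and are written 5′ to 3′. The C24 sequence and DNA methylation were not examined. Upstream of SDC the reference holds a repeat with a period of 32 bases at chr2:7681898-7682088, from position -264 to position -74 relative to the annotated transcript start, where position -1 is the base just before it. Its 6 copies are printed in order, with capitals at the 21 of 31 compared positions that are identical in every copy.
SDC copy 1: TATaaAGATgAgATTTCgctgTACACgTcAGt
SDC copy 2: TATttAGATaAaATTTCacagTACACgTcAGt
SDC copy 3: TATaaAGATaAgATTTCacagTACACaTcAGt
SDC copy 4: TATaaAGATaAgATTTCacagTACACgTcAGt
SDC copy 5: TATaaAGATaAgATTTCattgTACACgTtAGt
SDC copy 6: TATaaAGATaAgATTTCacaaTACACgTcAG
The 191 bases hold 57 cytosines over both strands, of which 12 stand in CG dinucleotides and 45 do not. The score of this repeat was taken over positions -244 to -87, before the stretch was extended to that printed. A repeat scored as high as that part was found around the start of 151 of 26692 genes scanned, or 0.566%.

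FWA carries 2 repeats at its start in the reference. The longer has a period of 211 bases, runs from position -25 to base 310 of the gene, and is 96.0% identical between copies. A repeat scored as high was found in 113 genes, or 0.423%. Within it, a stretch of 41 bases at the start of intron 1 recurs at the start of intron 2 with 41 of 41 positions identical. The shorter repeat lies wholly upstream, at chr4:13038249-13038286 and chr4:13038294-13038331, and is printed with capitals at identical positions, which are all 38.
FWA upstream copy 1: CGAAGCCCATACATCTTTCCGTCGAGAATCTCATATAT
FWA upstream copy 2: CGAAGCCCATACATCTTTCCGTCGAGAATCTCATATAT
QQS has a 31-base repeat from base 5 to base 71 of its first exon, with a score reached by 1264 genes, or 4.74%. AT3G01345 had a repeat score of 9, below the median of 12, and 98.7% of genes scored as high. It is separated by 143 bases, chr3:128995-129137, from AT3G01340, which is transcribed in the opposite direction. That interval is printed because it is all the sequence between the starts of the 2 genes, with its 2 CG dinucleotides in capitals.
AT3G01345 interval: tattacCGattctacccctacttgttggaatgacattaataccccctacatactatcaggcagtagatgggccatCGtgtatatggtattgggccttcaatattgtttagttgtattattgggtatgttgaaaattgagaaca

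**Figure D1:**
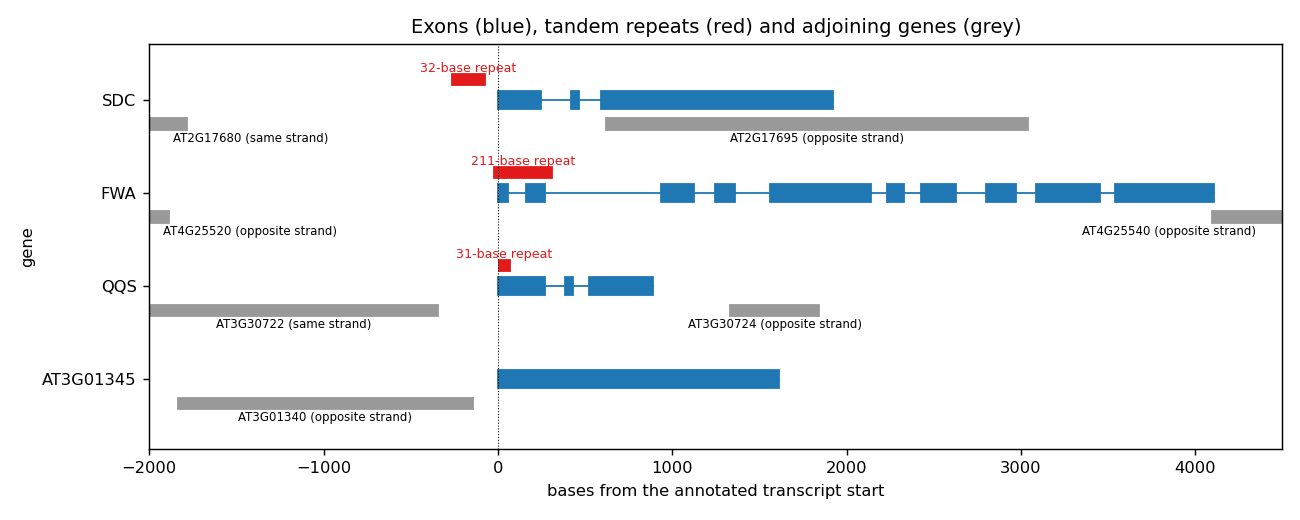
Annotated exons of the 4 genes (blue), tandem repeats found in the reference (red) and adjoining genes (grey), by distance in bases from the annotated transcript start. The SDC repeat ends at position -74, the 211-base repeat of FWA spans it, and no repeat is drawn for AT3G01345.

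The map of the gene starts shows how differently the 4 genes are built. SDC (chr2:7682162-7684083, plus strand) has 3 exons and FWA (chr4:13038360-13042464, plus strand) has 10. QQS (chr3:12349047-12349933, plus strand) has 3 annotated transcripts, and AT3G01345 (chr3:129138-130749, plus strand) is a single exon of 1612 bases. Having 1 exon in every transcript is a property of 18.9% of the 26693 protein-coding loci in the table. Copies elsewhere in the reference could share reads. SDC had 5 partial matches of up to 282 bases at no more than 80.7% identity. AT3G01345 had 26 at no more than 86.2% identity, the longest of 1466 bases at 76.7%, and FWA and QQS had none.

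Levels are the authors' FPKM. Low FPKM values of a gene were whole multiples of a single unit, which gave the reads behind each value and implied depths of about 40700000 to 54600000 reads a library. An exact 0 in the table can be a failed estimate, since RBCS1A, a gene of photosynthetic cells, was listed at 0 in every library while the leaf gene CAB1 stood at 8153 to 11073 FPKM. Root hair markers COBL9 and EXPA7 were present at 4.71 to 7.0 FPKM. The summed seed markers were highest in the wild type, at 13.2 FPKM against 5.92 in prp31, 1.08 in zop1 and 4.59 in sta1. Of these markers, CRA1 and CRC were highest in the wild type. OLEO1 was highest in sta1, at 2.88 FPKM against 1.64 in the wild type, and LEC1 was listed at 0 throughout. The endosperm markers FIS2 and PHE1 summed to no more than 0.104 FPKM in any library. Of the mutated genes, PRP31 was lowest in prp31 and ZOP1 in zop1, while STA1 was highest in sta1, at 18.9 FPKM against 14.1 in the wild type.

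SDC was the most abundant of the 4 genes in the wild type and was higher in all 3 mutants, most in zop1 and least in sta1. SDC stood at 1.64 FPKM in the wild type (97 reads), 3.74 in prp31 (245 reads), 5.76 in zop1 (281 reads) and 2.52 in sta1 (134 reads). No mutant value reached down to the wild type, as the choice of the gene required. Even in the wild type SDC was above 47.2% of all loci, and in zop1 it was above 60.8%. The level was 2.28-fold that of the wild type in prp31 (95% counting interval 1.79 to 2.91), 3.51-fold in zop1 (2.77 to 4.46) and 1.53-fold in sta1 (1.17 to 2.01). In whole seedlings, more cells expressing a gene and more RNA per cell cannot be told apart.

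The differences between the mutants were not used to choose SDC. SDC was 1.54-fold higher in zop1 than in prp31 (1.29 to 1.83) and 2.29-fold higher in zop1 than in sta1 (1.85 to 2.83). It was 0.673-fold in sta1 relative to prp31 (0.541 to 0.834). Each of these counting intervals lies away from 1, so the order zop1, prp31, sta1 was larger than counting error, with no measure of the spread between plants.

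Reads from the opposite strand bear on SDC. AT2G17695, annotated as an outer envelope protein, lies on the minus strand and shares 1303 exon bases with SDC, or 80.2% of the 1625 bases of the SDC transcript. Whether the libraries kept strand was not given in the sources used here, so reads of the 2 genes over those bases could not be separated, and the part of AT2G17695 in the SDC values was not tested. AT2G17695 was far more abundant, at 49.9 FPKM in the wild type, against 51.5 in prp31, 42.6 in zop1 and 54.0 in sta1. Like SDC, AT2G17695 was above the wild type in prp31 and in sta1. In zop1, where SDC was highest, AT2G17695 was below the wild type. The step between SDC values implied a transcript of 1404 bases against the 1625 annotated.

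AT3G01345 showed the largest differences of the 4 genes from the wild type. The annotation places its protein with glycoside hydrolase family 35 and calls it uncharacterized. It stood at 0.274 FPKM in the wild type (19 reads), 2.06 in prp31 (158 reads), 3.30 in zop1 (189 reads) and 2.42 in sta1 (151 reads). All 3 mutants were above the wild type, and zop1 was the highest. The level was 7.50-fold that of the wild type in prp31 (4.65 to 12.8), 12-fold in zop1 (7.50 to 20.4) and 8.82-fold in sta1 (5.46 to 15.1). Ranked by the smallest of its 3 differences on the log2(FPKM + 1) scale, AT3G01345 was 17 of the 19240 loci that averaged at least 1 FPKM over the libraries, and SDC was 134. The same contrasts chose both genes, and AT3G01345 reached that average only through its mutant libraries, so these ranks are a description.

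Between the mutants, AT3G01345 was 1.60-fold higher in zop1 than in prp31 (1.29 to 2.0) and 1.36-fold higher in zop1 than in sta1 (1.10 to 1.70). It was 1.18-fold in sta1 relative to prp31, and the interval of 0.935 to 1.48 includes 1, so the order of those 2 libraries was not resolved at this depth. Like SDC, AT3G01345 had its highest level in zop1.

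As listed, QQS did not follow the pattern it was chosen for, on few reads. QQS stood at 0.106 FPKM in the wild type (2 reads), 0.336 in prp31 (7 reads) and 0.901 in zop1 (14 reads), and was listed at 0 in sta1. Because 3 reads in sta1 would have been 0.177 FPKM, a level as low as that of the wild type could not have been told from none there, and no fold is given for sta1. The level was 8.47-fold that of the wild type in zop1 (1.95 to 76.8). In prp31 it was 3.16-fold, with an interval of 0.601 to 31.2 that includes 1. QQS was 2.68-fold higher in zop1 than in prp31 (1.01 to 7.85), at the edge of counting error.

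FWA was close to the limit of detection in every library. It stood at 0.0362 FPKM in the wild type (4 reads), 0.0817 in prp31 (10 reads), 0.0986 in zop1 (9 reads) and 0.0503 in sta1 (5 reads). The ratios to the wild type were 2.26 in prp31 (0.651 to 9.85), 2.72 in zop1 (0.760 to 12.1) and 1.39 in sta1 (0.299 to 6.99). All these intervals include 1, as do those between the mutants, so a difference in FWA was not detectable at this depth and the order of its levels is not resolved.

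**Figure D2:**
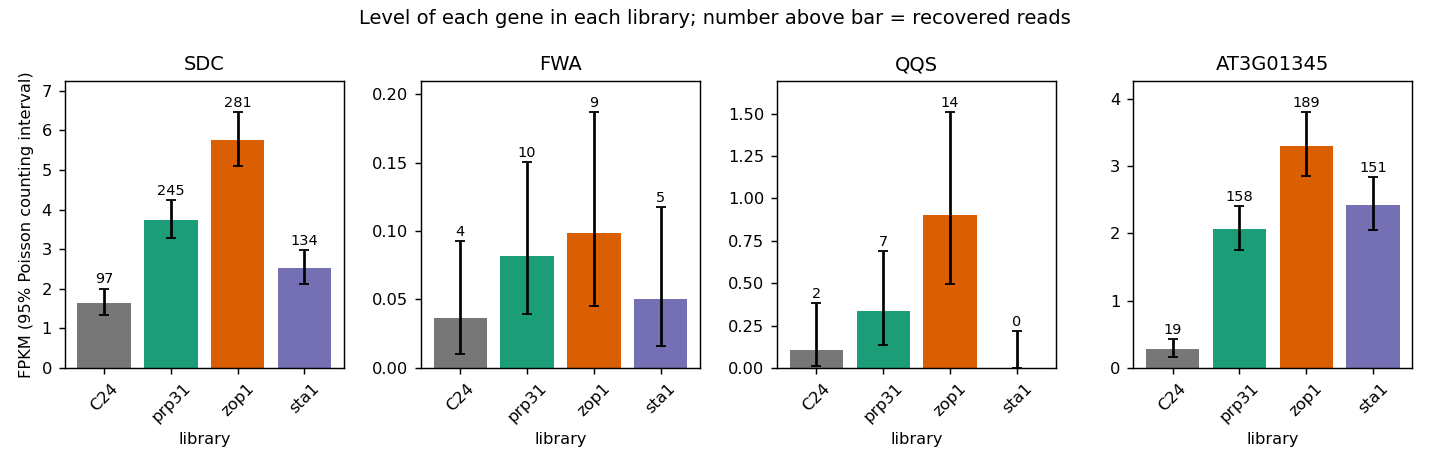
FPKM of SDC, FWA, QQS and AT3G01345 in each of the 4 libraries, 1 library a genotype, with error bars for the 95% Poisson counting interval and the recovered reads above each bar. SDC and AT3G01345 stand highest in zop1, QQS is listed at 0 in sta1, and the bars of FWA overlap in all libraries.

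**Figure D3:**
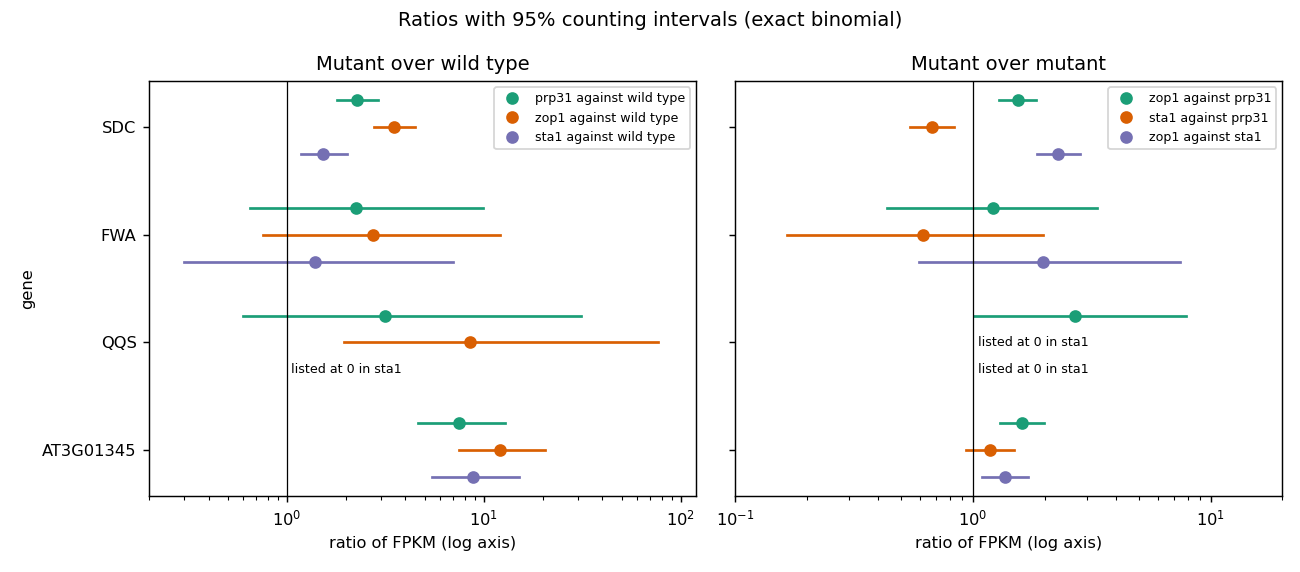
Ratios of FPKM (log axis) of each mutant to the wild type on the left and between mutants on the right, with 95% exact binomial counting intervals. Every interval of FWA crosses 1, and those of AT3G01345 over the wild type begin at 4.65 or above.

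The plots of levels and of ratios show how far depth differs between the genes. SDC and AT3G01345 rest on 19 to 281 reads a library. FWA and QQS rest on at most 14. AT3G01345 was listed below SDC per length in every library, though the values came near each other in sta1, at 2.42 and 2.52 FPKM. Their counting intervals there overlap (2.05 to 2.84 and 2.11 to 2.98), so the order in sta1 was not resolved.

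Against all loci, a 2-fold rule was applied as a difference of at least 1 on the log2(FPKM + 1) scale among loci averaging at least 1 FPKM. SDC and AT3G01345 passed that filter, and FWA (mean 0.0667 FPKM) and QQS (mean 0.336 FPKM) did not. In prp31, 1 of the 4 genes was higher by that rule, AT3G01345 at 1.26, where 0.515% of all loci were. In zop1, 2 were higher, AT3G01345 at 1.75 and SDC at 1.35, where 0.956% of all loci were. In sta1, 1 was higher, AT3G01345 at 1.42, where 0.79% of all loci were. SDC was at 0.84 in prp31 and 0.41 in sta1, short of the rule. These shares are given only for scale, since the same contrasts chose the genes.

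Loci above the wild type in every mutant were common and large differences were rare. FPKM was above the wild type in all 3 mutants for 3906 loci, or 20.3%, and 23 loci, or 0.12%, were at least 1 higher in each. AT3G01345 was among those 23, which its choice by the same contrasts favoured. Between the mutants, none of the 4 genes passed the rule in either direction, where 1.99% of loci did for zop1 against prp31, 1.67% for sta1 against prp31 and 1.36% for zop1 against sta1. SDC came nearest among the genes that passed the filter, at 0.94 for zop1 against sta1.

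**Figure D4:**
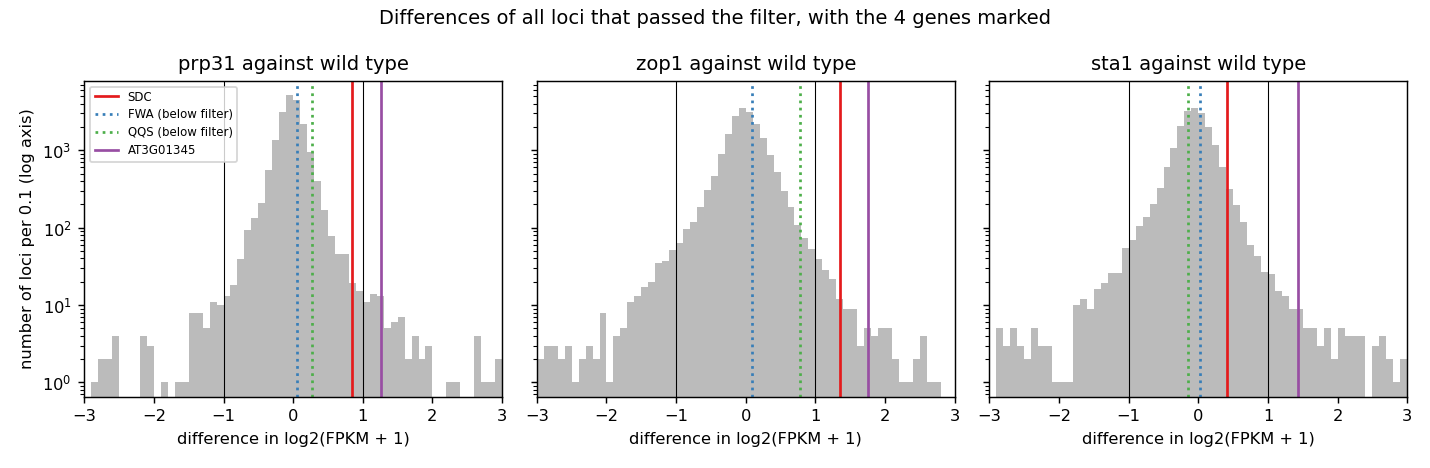
Distribution of log2(FPKM + 1) differences from the wild type over the 19240 loci averaging at least 1 FPKM, 1 panel a mutant, with the 4 genes marked and values beyond 3 in either direction not drawn. AT3G01345 lies past 1 in each panel and SDC in zop1 alone.

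The distribution over all loci is narrow around its medians, which for prp31, zop1 and sta1 were -0.02, -0.02 and -0.06. FWA and QQS are not among its loci and are marked for reference. At their low levels the pseudocount of 1 holds the difference near 0 whatever the fold, so the 0.06, 0.08 and 0.02 of FWA in prp31, zop1 and sta1 say little. QQS was at 0.27 in prp31 and 0.78 in zop1, and its -0.15 in sta1 follows from the listed 0 and is not read as a decrease.

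The genes next to the 4 were examined to see whether whole neighbourhoods were higher. Of 16 nearest loci, 2 on each side of each gene, 14 were in the table and 10 averaged at least 1 FPKM. By the 2-fold rule, 0 of these 10 were higher in each mutant, where 0.515% of all loci were in prp31, 0.956% in zop1 and 0.79% in sta1. Likewise 0 were lower in each mutant, where 0.426% of all loci were in prp31, 1.28% in zop1 and 1.19% in sta1. Over 10 loci, counts of 0 are near those shares and are no result about the neighbourhoods. AT3G01340, the WD40-repeat protein gene that faces AT3G01345 across 143 bases, stood at 34.4 FPKM in the wild type, against 31.8 in prp31, 30.3 in zop1 and 30.2 in sta1. It was slightly below the wild type where AT3G01345 was several-fold above it. DEL3, a further neighbour of AT3G01345 and an E2F-like gene of the cell cycle, stood at 3.19, 2.75, 5.75 and 3.46 FPKM in the wild type, prp31, zop1 and sta1.

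Next to FWA, MSH3, a DNA mismatch repair gene on the opposite strand that overlaps FWA by 10 bases, stood at 0.594 FPKM in the wild type, against 0.737 in prp31, 1.02 in zop1 and 0.831 in sta1. Its ratio to the wild type was 1.24 in prp31 (0.946 to 1.63), 1.71 in zop1 (1.31 to 2.25) and 1.40 in sta1 (1.06 to 1.85). Beyond the pseudogene next to QQS, GDU6, of a family of amino acid export regulators, stood at 1.22, 2.2, 0.185 and 0.508 FPKM in the wild type, prp31, zop1 and sta1, on 8, 16, 1 and 3 reads. Its ratio to the wild type was 1.80 in prp31 (0.729 to 4.87), 0.151 in zop1 (0.00341 to 1.13) and 0.416 in sta1 (0.0711 to 1.73), and all these intervals include 1. The pseudogenes AT3G30722 and AT3G30724 beside QQS were listed at 0 throughout. STY8, a protein kinase gene beside SDC, stood at 12.4 FPKM in the wild type, against 11.9 in prp31, 12.4 in zop1 and 12.2 in sta1. SLK1, a transcriptional adaptor gene beside FWA, stood at 10.3, 10.6, 9.77 and 9.90 FPKM in the same order. Others differed more while staying within the 2-fold rule. AT2G17670, 2 loci upstream of SDC, was above the wild type in every mutant, at 4.88 FPKM in the wild type, against 6.16 in prp31, 6.92 in zop1 and 6.92 in sta1. AT3G01350, beyond AT3G01345, stood at 2.27, 2.62, 2.59 and 3.50 FPKM and was 1.55-fold that of the wild type in sta1 (1.26 to 1.90), about as much as SDC there. AT4G25550, beyond FWA, was below the wild type in every mutant, at 38.9, 35.1, 29.4 and 35.5 FPKM, as was SLK3 at 3.77, 3.4, 3.06 and 3.42.

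**Figure D5:**
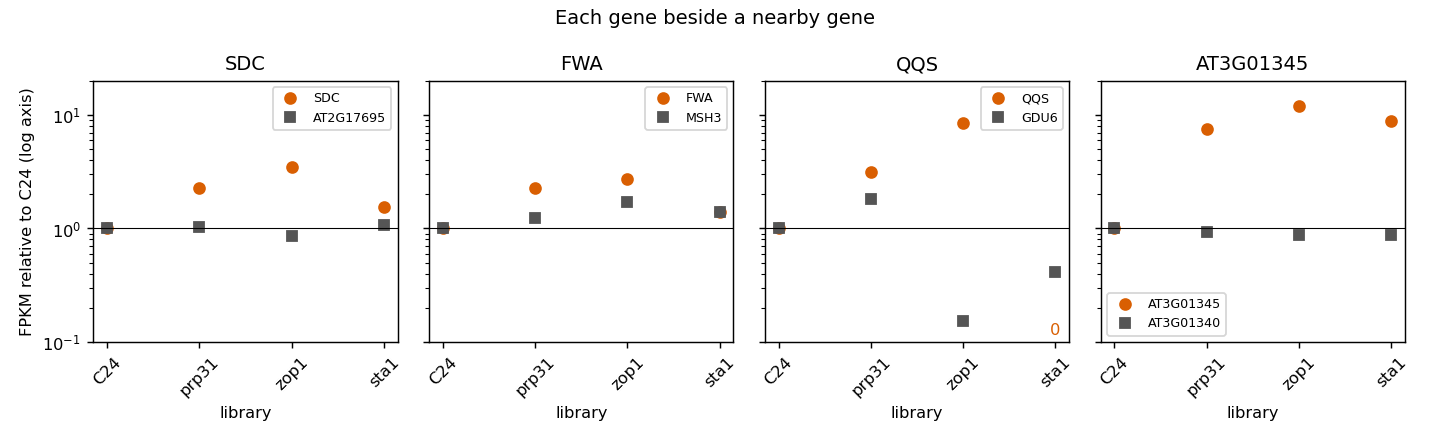
FPKM relative to the wild type (log axis) of each of the 4 genes (circles) and of 1 nearby gene each (squares), by library, 1 panel a gene, with a listed 0 written as 0. AT2G17695 and AT3G01340 stay near the line at 1, MSH3 reaches 1.71 in zop1 and lies on FWA in sta1, and GDU6, on 1 to 16 reads, has counting intervals that all include 1.

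The plot of nearby genes sets the 7.50-fold to 12-fold levels of AT3G01345 beside AT3G01340, whose ratios to the wild type were 0.924 in prp31, 0.880 in zop1 and 0.877 in sta1.

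Genes that write, read and remove DNA methylation were then described as a list. Of 43 such genes 38 averaged at least 1 FPKM, and by the 2-fold rule 0 were higher and 0 lower in prp31 and in zop1, and 0 higher and 1 lower in sta1. Over all loci 0.515% were higher and 0.426% lower in prp31, 0.956% and 1.28% in zop1, and 0.79% and 1.19% in sta1. Counts of 0 or 1 in this list are near those shares and are no result about it. The shorter lists below hold too few genes for such counts to be a result about them. Their median differences in prp31, zop1 and sta1 were -0.08, -0.03 and -0.12, beside -0.02, -0.02 and -0.06 over all loci. MET1, the maintenance methyltransferase for CG sites, stood at 12.9 FPKM in the wild type, against 13.0 in prp31, 15.3 in zop1 and 14.5 in sta1. CMT3, which methylates cytosines outside CG sites, stood at 10.5, 9.89, 14.3 and 9.01 FPKM in the same order.

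The list's member past the rule was ROS1, the DNA glycosylase that removes methylated cytosine. ROS1 stood at 11.7 FPKM in the wild type, against 6.92 in prp31, 9.38 in zop1 and 3.95 in sta1. It was below the wild type in each mutant, and in sta1 it was 2.96-fold lower (2.73 to 3.21).

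Other loci known to be silenced or imprinted were mostly near 0. Of 15 listed, 3 were dropped because the annotation gave them no such name, and of the 12 others 3 averaged at least 1 FPKM. By the 2-fold rule 0 of these 3 were higher in any mutant and 1 was lower, in sta1, where 1.19% of all loci were. That was MPC, an imprinted gene encoding a poly(A)-binding protein relative, at 2.76 FPKM in the wild type, against 1.89 in prp31, 1.02 in zop1 and 0.799 in sta1. In sta1 it was 3.45-fold lower than in the wild type (1.80 to 7.16). AGL36, an imprinted MADS-box gene, rested on 7 reads in the wild type, with 5 in prp31, 11 in zop1 and 23 in sta1. Its ratio to the wild type was 0.644 in prp31 (0.161 to 2.36), 1.90 in zop1 (0.673 to 5.79) and 3.65 in sta1 (1.52 to 10.1), so the interval lay away from 1 in sta1 alone.

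FWA belongs to the class IV homeodomain-leucine zipper family, which acts mainly in the epidermis. Of its 15 listed relatives 10 averaged at least 1 FPKM, and 0 were higher or lower by the 2-fold rule in any mutant, where 0.426% to 1.28% of all loci were called in a given direction. The largest difference was that of HDG5, at 5.03 FPKM in the wild type, against 3.25 in prp31, 4.37 in zop1 and 2.79 in sta1.

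Flowering genes were listed because ectopic FWA delays flowering. Of 10 genes 4 averaged at least 1 FPKM and 0 passed the 2-fold rule in any mutant, where 0.426% to 1.28% of all loci were called in a given direction. SOC1, a promoter of flowering, stood at 9.65, 8.15, 12.1 and 5.74 FPKM in the wild type, prp31, zop1 and sta1, and FLC, a repressor of flowering, at 107, 92.6, 86.0 and 111. FT, the mobile flowering signal, rested on 3, 14, 7 and 9 reads and was 4.21-fold that of the wild type in prp31 (1.18 to 22.8), 2.82-fold in zop1 (0.645 to 16.9) and 3.33-fold in sta1 (0.831 to 19.1). The last 2 intervals include 1.

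Starch genes were listed because QQS acts on starch. All 19 averaged at least 1 FPKM, and 0 passed the 2-fold rule in any mutant, where 0.426% to 1.28% of all loci were called in a given direction. The largest difference was that of GBSS1, the starch synthase that makes amylose, at 85.4, 101.2, 101.2 and 128.5 FPKM in the wild type, prp31, zop1 and sta1. DPE2, a glucanotransferase that uses maltose, stood at 39.1 FPKM in the wild type, against 38.4 in prp31, 25.9 in zop1 and 35.6 in sta1. NF-YC4, a transcription factor subunit that binds the QQS protein, stood at 18.6, 16.4, 14.8 and 13.8 FPKM.

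The genes most like each of the 4 were found by the distance between their 3 differences from the wild type, over 18518 protein-coding loci. This likeness is over 3 comparisons that share the wild-type library and is a description. Nearest to SDC were AT5G41830, a leucine-rich repeat protein gene at 0.239, 0.833, 2.21 and 0.816 FPKM, then AT1G59930, a MADS-box gene at 4.27, 7.14, 14.0 and 7.06, and AGP17, an arabinogalactan protein gene at 34.6, 59.7, 70.1 and 49.9. Nearest to AT3G01345 were NAC044, AT3G05730 and AT2G33175. NAC044, a transcription factor of the DNA damage response, stood at 1.07 FPKM in the wild type, against 3.51 in prp31, 6.91 in zop1 and 5.87 in sta1. The nearest to QQS were AT2G07000, AT3G29639 and AT1G65541. For FWA the measure picks out little, since 875 loci lay within 0.1 of it, against 0 for each of the other genes.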

How the data were processed

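RNA was sequenced from whole seedlings of 4 genotypes, 1 library each. The deposited FPKM values were made by the authors with TopHat2 2.0.12, Bowtie, Cufflinks 2.0.1 and Cuffdiff on TAIR10, per the submitters' processing notes; the sources used here give neither filters nor strandedness. From them log2(FPKM + 1) differences were computed, which understate the change of low genes. Loci averaging under 1 FPKM were left out of counts past 2-fold. No p-value was computed, because no genotype had a replicate. Read numbers of a locus were recovered from its own FPKM values as whole multiples, within 0.005 of a whole number. The worth of 1 read in each library relative to the wild type was found from low loci. Total depth and effective length came from 1712 single-transcript loci with few reads. Of these, 490 shared the effective length of the transcript minus 204 bases. Ratios have 95% exact binomial counting intervals and levels Poisson ones; reads may include PCR copies, so both cover counting error only. Repeats with periods of 20 to 250 bases were scored (match 1, mismatch -3) from 1000 bases before to 500 after each start. Named genes were the 4 members, their 2 nearest neighbours on each side, the 3 loci nearest in pattern, and list genes past 2-fold or otherwise with the largest difference; MET1, CMT3, DPE2, FLC, NF-YC4, AGL36 and FT were named after their values were seen. The members and lists were chosen with earlier results of these data known. The calculations were tested on simulated data. Python 3.11.15, pandas 2.3.3, numpy 2.4.6, scipy 1.17.1 and matplotlib 3.10.9 were used.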

Additional observations from a re-analysis of the deposited data

How the results depend on the processing

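Of 61 results, all 61 stayed within their limits with no filter on low values, with a filter of 0.3 FPKM, and with median-of-ratios or upper-quartile scaling. The limit was a fixed ratio for counts and was set by the counting interval for differences. Comparisons of QQS with sta1 had no interval and so no limit. The differences do not depend on the filter, so the filter settings could move counts only. None reversed under any alternative, which was possible only for differences of at least 1 in size. The pseudocount moved counts past 2-fold and some differences of the genes. At 0.1, AT3G01345 went from 1.26 to 2.53 in prp31 and from 1.75 to 3.18 in zop1. It went from 1.42 to 2.75 in sta1, and SDC went from 1.35 to 1.75 in zop1. With 0.1 in place of 1, 2 of the 4 genes passed in prp31 and 1 for zop1 against sta1. Of the 19240 loci, 266 passed in prp31 and 426 for zop1 against sta1. In zop1, 1 other silenced locus and 1 neighbour passed, where 678 of those loci did. In sta1, 1 neighbour passed, where 619 did. With 0.5, 1 of the 4 genes passed for zop1 against sta1, where 322 of the 19240 loci did. In zop1, 1 other silenced locus and 1 neighbour passed, where 544 of those loci did. With 0.1 and no filter, an alternative chosen after seeing the data, 3 of the 4 genes passed in prp31, 3 in zop1 and 2 in sta1. Of all 34133 loci, 795 passed in prp31, 1419 in zop1 and 1390 in sta1. Between mutants, 1 of the 4 genes passed for zop1 against prp31, 1 for sta1 against prp31 and 2 for zop1 against sta1. In the same order, 1370, 1220 and 1190 of all 34133 loci did. Also passing were 1 silencing gene in zop1, and 1 other silenced locus in zop1 and 2 in sta1. So did 1 flowering gene each in prp31 and sta1, and 1 neighbour each in zop1 and sta1. QQS in sta1 counts there as lower. Over all settings, loci past 2-fold ranged from 181 to 795 in prp31, 425 to 1419 in zop1 and 360 to 1390 in sta1, and those higher in all 3 mutants from 23 to 87. No paired analysis was possible because each genotype had 1 library. Depth limits FWA and QQS, which rest on at most 14 reads.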

Other observations

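Outside the comparisons above, AGO9, an Argonaute of the small RNA pathway that averaged under 1 FPKM, stood at 0.217 FPKM in the wild type, against 0.287 in prp31, 0.909 in zop1 and 0.481 in sta1, on 15, 22, 52 and 30 reads. Its level was 4.20-fold that of the wild type in zop1 (95% counting interval 2.33 to 8.02) and 2.22-fold in sta1 (1.16 to 4.44). APUM9, a Pumilio RNA-binding protein gene, stood at 0.136, 0.123, 0.198 and 0.197 FPKM in the wild type, prp31, zop1 and sta1, on 10, 10, 12 and 13 reads, and the interval of each ratio to the wild type includes 1 (zop1 0.575 to 3.75, sta1 0.585 to 3.68). These genes were named after their values were seen.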
